A study of Homo sapiens with 97 samples.

Results

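APEX-seq marks RNA in living cells. A peroxidase, APEX2, is fused to a protein or signal that sends it to one place in the cell, biotin-phenol and hydrogen peroxide are added, and RNA near the enzyme is tagged with biotin and recovered. Here the libraries of 3 constructs placed in the nucleus were set against those of 3 constructs that face the cytosol, over all expressed genes. The nuclear constructs were NLS (nucleus), NIK (nucleolus) and LMA (nuclear lamina). The cytosolic-face constructs were NES (cytosol), ERM (endoplasmic reticulum membrane) and OMM (outer mitochondrial membrane). Members were chosen by these construct names alone: 12 labelled poly(A) libraries, 6 a side and 2 a construct, of the 97 samples of the series. All came from HEK293T, a human embryonic kidney cell line, each stably expressing 1 APEX2 fusion, so a construct and its cell line cannot be told apart from the labelled libraries alone. Labelled cells received biotin-phenol for 30 min and 1 mM hydrogen peroxide for 1 min. The 12 unlabelled libraries of the same 6 lines were handled alike without peroxide and serve as the background. Nuclear and cytosol fractions of HEK293T, 2 libraries each, are given beside the results as another method.

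Messenger RNAs are made and spliced in the nucleus and exported through nuclear pores. Some RNAs stay behind, among them many long noncoding RNAs and transcripts that keep an intron. Messages for secreted and membrane proteins are translated on ribosomes docked at the endoplasmic reticulum, whose membrane is continuous with the outer nuclear envelope, and some messages for mitochondrial proteins are translated at the mitochondrial surface.

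The 12 labelled libraries held 21217085 to 36661323 counts. Libraries differed in how many genes they captured. Of well-expressed genes, 5.96% had no count in NIK labelled 1, 4.90% in ERM labelled 1 and 2.88% in NIK labelled 2. The replicate correlation of log2 CPM (gene counts scaled to the TMM-normalised library total) was 0.605 for NIK and 0.787 for ERM, against 0.955 to 0.991 for the other 4 constructs. The first principal component (35.5% of variance) set NIK labelled 1 apart and the second (30.9%) ERM labelled 1. On the second component NLS and LMA lay between -62.8 and -56.1, NES between -4.50 and 0.815 and OMM between 10.1 and 16.4. NIK labelled 1, at 17.7, lay beyond NES and OMM there, and NIK labelled 2 was at -42.1. Among line markers, VIM was at 209 to 479 CPM, NEFM at 49.2 to 101 CPM and KRT8 at 0 to 8.50 CPM. Of the markers of other cells, PTPRC, ALB and LYZ stayed at or below 0.781 CPM, COL3A1 reached 6.86 CPM, and CD3E, HBB, PECAM1 and INS fell below the filter on low counts.

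**Figure D1:**
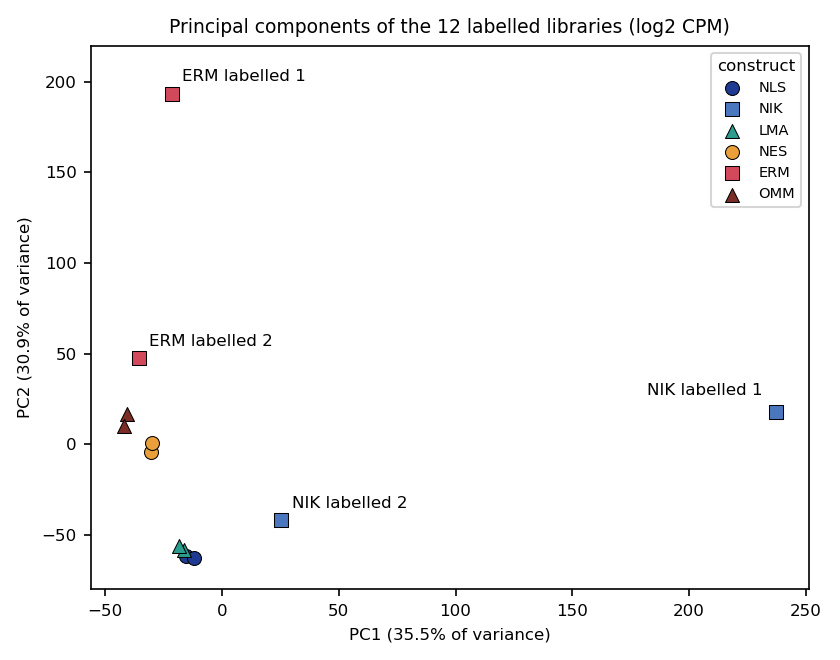
Scores of the 12 labelled libraries on the first and second principal components of log2 CPM over genes; each point is 1 library, coloured by construct. NIK labelled 1 and ERM labelled 1 stand apart, and the NLS and LMA libraries lie together at the bottom of the vertical axis.

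Of 22680 genes tested, 2130 (9.39%) were higher and 2287 (10.1%) lower with the nuclear constructs than with the cytosolic-face constructs (edgeR quasi-likelihood test, Benjamini-Hochberg adjusted p under 0.05, as for every call below). Fold changes are log2 differences, nuclear minus cytosolic-face, each construct weighing the same, given with the standard error. The same contrast in the unlabelled libraries called 849 genes (3.74%), 432 of them higher and 417 lower. The 277 genes called in the same direction with and without label were 6.27% of the labelled calls and 32.6% of the unlabelled ones. After subtraction of the unlabelled contrast, 1365 genes (6.02%) were higher and 1510 (6.66%) lower. These p-values rest on the spread between 2 libraries of a construct, which the labels call biological replicates without naming separate cultures, so they speak of these 6 constructs. With the construct as the replicate, 3 against 3, 617 genes were higher and 360 lower, and of the 83 genes described below 38 lost their call. Those that lost it include CANX, SCD, HSPA5, SPARC, GPRC5A, ALDH18A1, IARS2, RPS7, SSBP1, MT-CO1 and ACTB, while NEAT1, MALAT1, GAS5, DDX39B, OGT and CALU kept it. A fit of only the libraries of each contrast gave another split, 1897 higher and 3049 lower with label and 914 higher and 1796 lower after subtraction. In bulk libraries, fewer cells with a transcript and less of it per cell cannot be told apart.

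Among the 11932 genes that averaged 5 CPM or more over the 12 libraries, all 6 nuclear libraries lay above all 6 cytosolic-face libraries in 1050 (8.80%) and below them in 626 (5.25%). The unlabelled libraries of both sides failed to overlap in 418 (3.50%). Gene classes differed in direction. Of 10831 protein-coding genes, 15.1% were higher and 19.2% lower. Of 128 long intergenic noncoding RNAs (lincRNAs), 30.5% were higher and 5.47% lower, with a median fold change of 1.34. Among 163 antisense transcripts, 39 were higher and 4 lower (median 1.12), and among 61 processed transcripts 25 were higher and 0 lower (median 1.47). The 98 transcribed unprocessed pseudogenes had 40 higher and 0 lower (median 1.67), against 35 and 50 of 474 processed pseudogenes. Processed pseudogenes share reads with their parent genes, and their values are uncertain for that reason. Whether reads of the unprocessed pseudogenes are shared with related genes was not tested.

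Long noncoding RNAs known for nuclear retention were higher with the nuclear constructs. Of 21 such RNAs tested, 9 were higher and 0 lower, with a median fold change of 2.00 against 0.14 over all genes tested. NEAT1, the scaffold of paraspeckles (chr11:65422774-65445540, GRCh38), was at 78.7, 290 and 336 CPM (lowest, median and highest) in the nuclear libraries and at 20.2, 29.9 and 53.5 CPM in the cytosolic-face libraries. The sides did not overlap, although NIK labelled 1 lay well below the other 5 nuclear libraries. The difference was 3.04 ± 0.25 (adjusted p = 3.74e-11). MALAT1, a nuclear speckle RNA (chr11:65497688-65506516), was at 87.8 to 136 CPM against 12.8 to 40.2 CPM, a difference of 2.60 ± 0.29. Its highest cytosolic-face value was ERM labelled 1; the other 5 lay at or below 16.9 CPM. TUG1 was called at 0.39 ± 0.13 (adjusted p = 0.0241), but its sides overlapped. The call was lost in 8 of 27 other settings, among them those without NLS labelled 2, NIK labelled 1 or LMA labelled 2. In the NES libraries TUG1 was at 236 and 238 CPM, against 417 to 494 CPM in ERM and OMM, so the cytosolic side was split. The NES, ERM and OMM values differed from each other (adjusted p = 0.0059).

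Noncoding host genes, whose introns carry snoRNAs (small RNAs that guide modification of ribosomal RNA), moved as a group. Of 24 tested, 17 were higher and 0 lower (median 1.97), and 13 had all 6 nuclear libraries above all 6 others. GAS5 was at 147, 230 and 354 CPM in the nuclear libraries and at 34.7, 54.8 and 72.7 CPM in the others, a difference of 2.16 ± 0.16. SNHG1 differed by 1.83 ± 0.15 and SNHG17 by 2.77 ± 0.24. The 2 NLS libraries were the highest for GAS5 (319 and 354 CPM), LMA came next (230 and 231 CPM) and NIK was lowest (147 and 162 CPM), and the 3 differed (adjusted p = 0.0335). SNHG1 had the same order, with NLS at 391 and 443 CPM and NIK at 166 and 182 CPM (adjusted p among the 3 = 0.00713). In the unlabelled lines GAS5 went the other way, at -0.97 (adjusted p = 0.000152). Host genes of microRNAs had 4 of 25 higher and 0 lower. MIR17HG, the host of the miR-17 to 92 cluster, was at 73.1 to 140 CPM in 5 nuclear libraries but at 8.15 CPM in NIK labelled 1, against 3.96 to 11.5 CPM on the cytosolic side (3.55 ± 0.42). MIR222HG was at 23.3 to 38.9 CPM against 0 to 4.56 CPM (3.66 ± 0.76).

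Antisense transcripts, whose names end in -AS, held 38 higher and 6 lower of 533 tested, a share of higher genes below the 9.39% over all genes tested. Most were scarce. Of the 114 that reached 5 CPM, 28 were higher and 3 lower, against 1851 and 2144 of all 11932 genes at that level. The median of the whole list against the cytosolic mean was 1.68 for NLS, 2.35 for LMA and -1.40 for NIK. GABPB1-AS1 was at 112, 146 and 207 CPM against 4.07, 8.91 and 26.9 CPM (3.78 ± 0.42). SLC9A3-AS1 was at 124 to 264 CPM against 11 to 26.3 CPM (3.26 ± 0.26). The counting strand is not given in the sources used here, so reads of an antisense transcript and its partner may not be separable.

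Splicing regulators formed the second nuclear group. Many of them have transcripts that keep an intron, and such transcripts are known to wait in the nucleus. Of 23 CLK kinases, cyclins L and intron-detaining genes, 17 were higher and 0 lower (median 1.78), 16 of them without overlap between sides. Of 32 SR proteins and splicing activators, 23 were higher and 1 lower (median 0.86). These lists, like the others, were drawn up with earlier results of these data known, so the counts describe only the members listed. DDX39B, an RNA helicase of splicing and export (chr6:31530219-31542448), was at 356, 773 and 873 CPM in the nuclear libraries and at 109, 121 and 131 CPM in the others. The 6 cytosolic-face values lay close together, whereas NIK (356 and 418 CPM) lay below LMA (769 and 778 CPM) and NLS (872 and 873 CPM). The difference was 2.42 ± 0.12 (adjusted p = 2.01e-16), and without label it was -0.71 (adjusted p = 0.000185).

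OGT, which adds GlcNAc to nuclear and cytosolic proteins and detains an intron, was at 490 to 946 CPM against 169 to 210 CPM (1.78 ± 0.12). MAT2A, which makes S-adenosylmethionine, was at 669 to 1216 CPM against 180 to 276 CPM (2.13 ± 0.14). SRSF11, an SR-like splicing protein, differed by 2.09 ± 0.14, and LUC7L3, a partner of the U1 particle, by 1.90 ± 0.14. RBM5 differed by 2.03 ± 0.14 and RBM39 by 1.58 ± 0.10, both RNA-binding splicing regulators. DDX17, a helicase, was at 2077 to 3898 CPM against 693 to 944 CPM (1.87 ± 0.11). TAF1D, a subunit of the RNA polymerase I factor SL1 whose gene hosts snoRNAs, differed by 2.07 ± 0.18. In all 8 genes no nuclear library reached down to a cytosolic-face library.

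The hnRNP family, which packages nascent RNA, was less uniform: 13 of 24 were higher and 2 lower (median 0.28). With the construct as the replicate 3 were higher and 0 lower. HNRNPH1 was at 1048, 1292 and 2283 CPM against 322, 361 and 434 CPM (2.00 ± 0.10), with NLS above NIK and LMA. HNRNPA1 was at 606 to 1026 CPM against 139 to 238 CPM (1.95 ± 0.11). HNRNPA2B1 differed by 0.87 ± 0.08, with its sides still apart (1771 to 2495 CPM against 843 to 1459 CPM). Of 423 numbered zinc finger genes, many of them KRAB repressors of DNA repeats, 66 were higher and 19 lower. Among the 316 that reached 5 CPM, 63 were higher and 16 lower, against 1851 and 2144 of all 11932 genes at that level. For single constructs against the cytosolic mean, 42 of the 423 were higher and 2 lower for NLS and 47 and 2 for LMA. For NIK the list was split, with 32 higher and 29 lower. ZNF621 was at 164 to 327 CPM against 60.5 to 83.6 CPM (1.68 ± 0.18) and ZNF121 at 171 to 258 CPM against 28.3 to 60.8 CPM (2.42 ± 0.20).

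**Figure D2:**
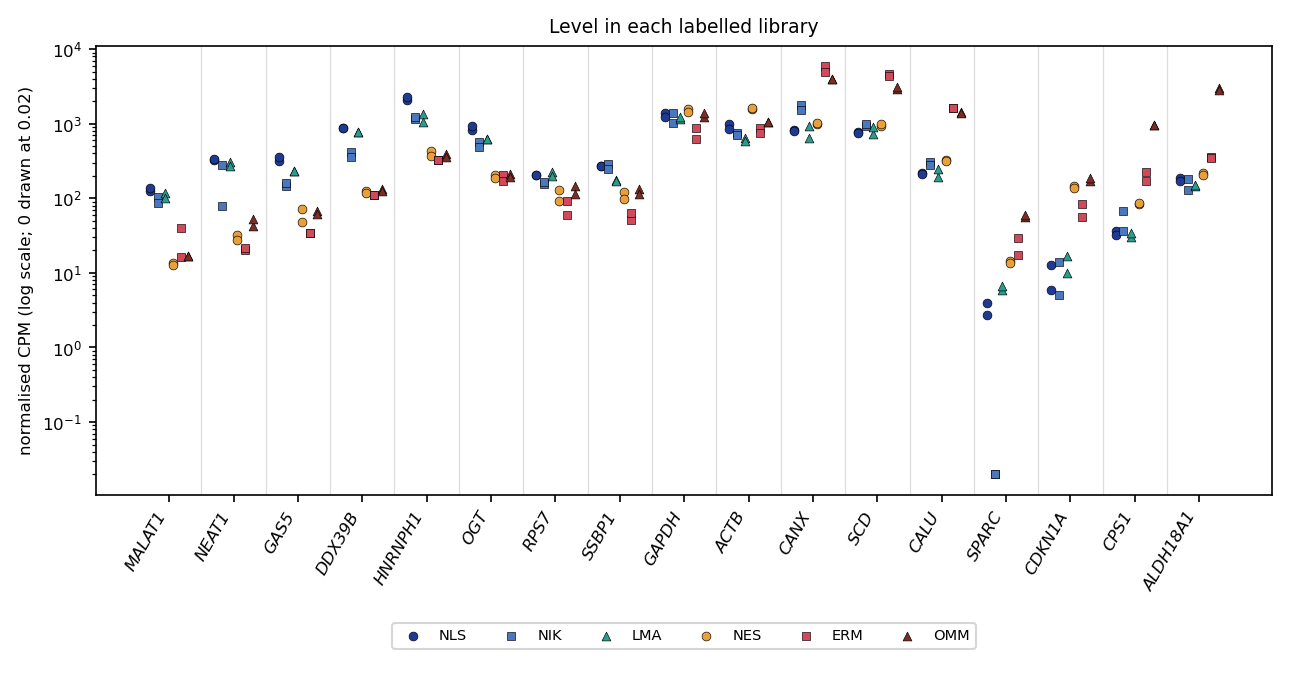
Normalised CPM (log scale, values of 0 drawn at 0.02) of 17 genes in each of the 12 labelled libraries; each point is 1 library, and shape and colour give the construct. MALAT1 to OGT lie higher in all 6 nuclear libraries, and CANX, SCD and CALU lie far higher in ERM and OMM than in NES.

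Genes with the largest positive differences were scarce, and ERM counts weighed on them. By the naming rule (called in the labelled contrast and after subtraction, in the same direction, no overlap between sides, at least 5 CPM), 606 genes were eligible above and 388 below. In 14 of the 15 with the largest positive fold change both ERM libraries had 0 counts, so the fitted fold is not a bound and the ratio of mean CPM is given. ANKRD10-IT1, an intronic transcript, was at 15.7 to 38.4 CPM in the nuclear libraries and at 0 to 0.944 CPM in the others, a ratio of 83.2. LINC01355 was at 8.73 to 19.9 CPM against 0 to 1.94 CPM, a ratio of 22.1, and MORF4L2-AS1 at 5.10 to 26.2 CPM against 0 to 1.73 CPM, a ratio of 23.9. NFYC-AS1 was at 19.2 to 30.3 CPM against 0 to 1.33 CPM, a ratio of 42.1; here 1 of the ERM libraries had counts. Among protein-coding genes, LY6G5B had a ratio of 19.4, TNFRSF13C 18.4, PDIA2 9.62, CCDC78 7.84 and MCEE, a mitochondrial epimerase, 7.38. In the last of these NES and OMM were at 2.00 to 6.43 CPM while ERM was at 0. Without the ERM construct the calls of LINC01355, TNFRSF13C, PDIA2, CCDC78 and MCEE were lost, and the count of higher genes over the whole table was 1124 in place of 2130.

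Messages of the secretory pathway were the main group lower with the nuclear constructs. Of 42 ER chaperones and folding enzymes, 28 were lower and 0 higher (median -0.83). Of 72 plasma membrane receptors and transporters, 51 were lower and 3 higher (median -0.97). Of 43 secreted and extracellular matrix proteins, 25 were lower and 2 higher (median -1.14), and of 40 lysosomal proteins 21 were lower and 3 higher (median -0.66). The translocon, signal peptidase and oligosaccharyltransferase had 19 of 33 lower and 2 higher, and sterol and lipid synthesis enzymes 21 of 44 lower and 5 higher (median -0.64 in each). After subtraction of the unlabelled contrast the counts lower were 17 for ER chaperones, 34 for plasma membrane, 17 for secreted, 12 for lysosomal, 14 for translocon and 18 for sterol and lipid genes. With the construct as the replicate 5 ER chaperones, 7 plasma membrane, 6 secreted and 7 lysosomal genes were still called lower. In that setting 1 translocon gene and 6 sterol and lipid genes were called lower. The counts higher were 1 for sterol and lipid genes and 0 for the other lists.

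The medians of these lists were well below 0 against ERM and OMM and near 0 against NES. The comparisons with NES, ERM and OMM share the 6 nuclear libraries, so their values are only set side by side. For ER chaperones the median was -0.01 against NES, -1.23 against ERM and -1.37 against OMM, with 2, 26 and 31 genes lower. For plasma membrane genes it was 0.01, -1.50 and -1.46, with 4, 55 and 56 genes lower. Secreted proteins gave -0.17, -1.20 and -1.90, and lysosomal proteins 0.06, -0.75 and -1.45. Sterol and lipid enzymes gave 0.02, -0.94 and -0.94. The test among NES, ERM and OMM, which called 1880 genes in all (8.29%), called 32 of the 42 ER chaperones, 48 of the 72 plasma membrane genes and 29 of the 40 lysosomal genes.

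CANX, the lectin chaperone calnexin of the ER membrane (chr5:179678628-179730925), shows the pattern. It was at 983 and 1014 CPM in NES, 5966 and 4936 CPM in ERM and 3939 and 3943 CPM in OMM. In the nuclear libraries it was at 653, 886 and 1789 CPM, so NES lay inside the nuclear range and ERM and OMM far above it. NIK (1789 and 1530 CPM) exceeded both NES libraries, and the nuclear constructs differed among themselves (adjusted p = 7.22e-05). The overall difference was -1.44 ± 0.10. SCD, the stearoyl-CoA desaturase, was at 944 and 999 CPM in NES and 2903 to 4643 CPM in ERM and OMM, against 736 to 988 CPM in the nuclear libraries (-1.48 ± 0.08). HSPA5, the luminal chaperone BiP, was at 333 to 639 CPM in the nuclear libraries, 401 and 509 CPM in NES and 1104 to 1311 CPM in ERM and OMM (-0.93 ± 0.11). After subtraction HSPA5 was no longer called (-0.39, adjusted p = 0.0895), and the unlabelled lines differed by -0.54 (adjusted p = 0.00196).

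In most of the other secretory genes named by the rule every nuclear library lay below both NES libraries. These genes were picked for the smallest p of their list, which favours such a layout. Against NES alone CALU, SEC61A1 and MAGT1 were not called, and the whole lists had medians near 0. CALU, a calcium-binding ER protein, was at 196, 235 and 308 CPM in the nuclear libraries and at 320, 1404 and 1624 CPM in the others (-1.90 ± 0.11). The calcium-binding chaperone CALR was at 237 to 442 CPM against 616 to 1823 CPM (-1.72 ± 0.11), and HYOU1, a luminal chaperone, at 137 to 235 CPM against 287 to 1034 CPM (-1.59 ± 0.11). The fatty acid desaturases FADS1 and FADS2 differed by -1.67 ± 0.11 and -1.91 ± 0.17. SEC61A1, the channel of the translocon, differed by -1.57 ± 0.11, MAGT1, an oligosaccharyltransferase subunit, by -1.55 ± 0.10 and SSR2, a translocon-associated protein, by -1.17 ± 0.10. FSTL1, a secreted glycoprotein, differed by -2.03 ± 0.11, of which the unlabelled lines showed -1.09. The lysosomal genes PSAP and SCARB2 differed by -1.71 ± 0.10 and -1.79 ± 0.12. SCARB2, CALR, CALU and FADS1 were also called lower without label (-0.56, -0.45, -0.42 and -0.40), and each stayed called after subtraction. In MAGT1 and PSAP the highest nuclear library reached into the NES values.

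Some of the genes with the largest negative differences were scarce and had no counts in NIK. SPARC, a secreted matrix protein (chr5:151661096-151687165), was at 0 in both NIK libraries, 2.74 to 6.69 CPM in NLS and LMA and 13.7, 23.3 and 60.3 CPM on the cytosolic side, a ratio of mean CPM of 9.92. GPRC5A, a membrane receptor, was at 0 to 6.95 CPM against 8.56 to 35.1 CPM, a ratio of 10.2. The secreted protease ADAMTS15 and the membrane chemokine CXCL16 were likewise at 0 in NIK, with ratios of 5.53 and 5.61, and both calls were lost without the NIK construct. Of the 15 with the largest negative fold change, 6 had both NIK libraries at 0. In others of the 15, among them F11R, OPTN, APLP1 and CADM4, NIK labelled 1 alone was at 0. F11R, a tight junction protein, was at 0 to 22.6 CPM against 45.4 to 218 CPM, a ratio of 8.88. OPTN, an autophagy receptor that is no secretory protein, was at 0 to 11.5 CPM against 28.3 to 40.4 CPM, a ratio of 5.26.

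**Figure D3:**
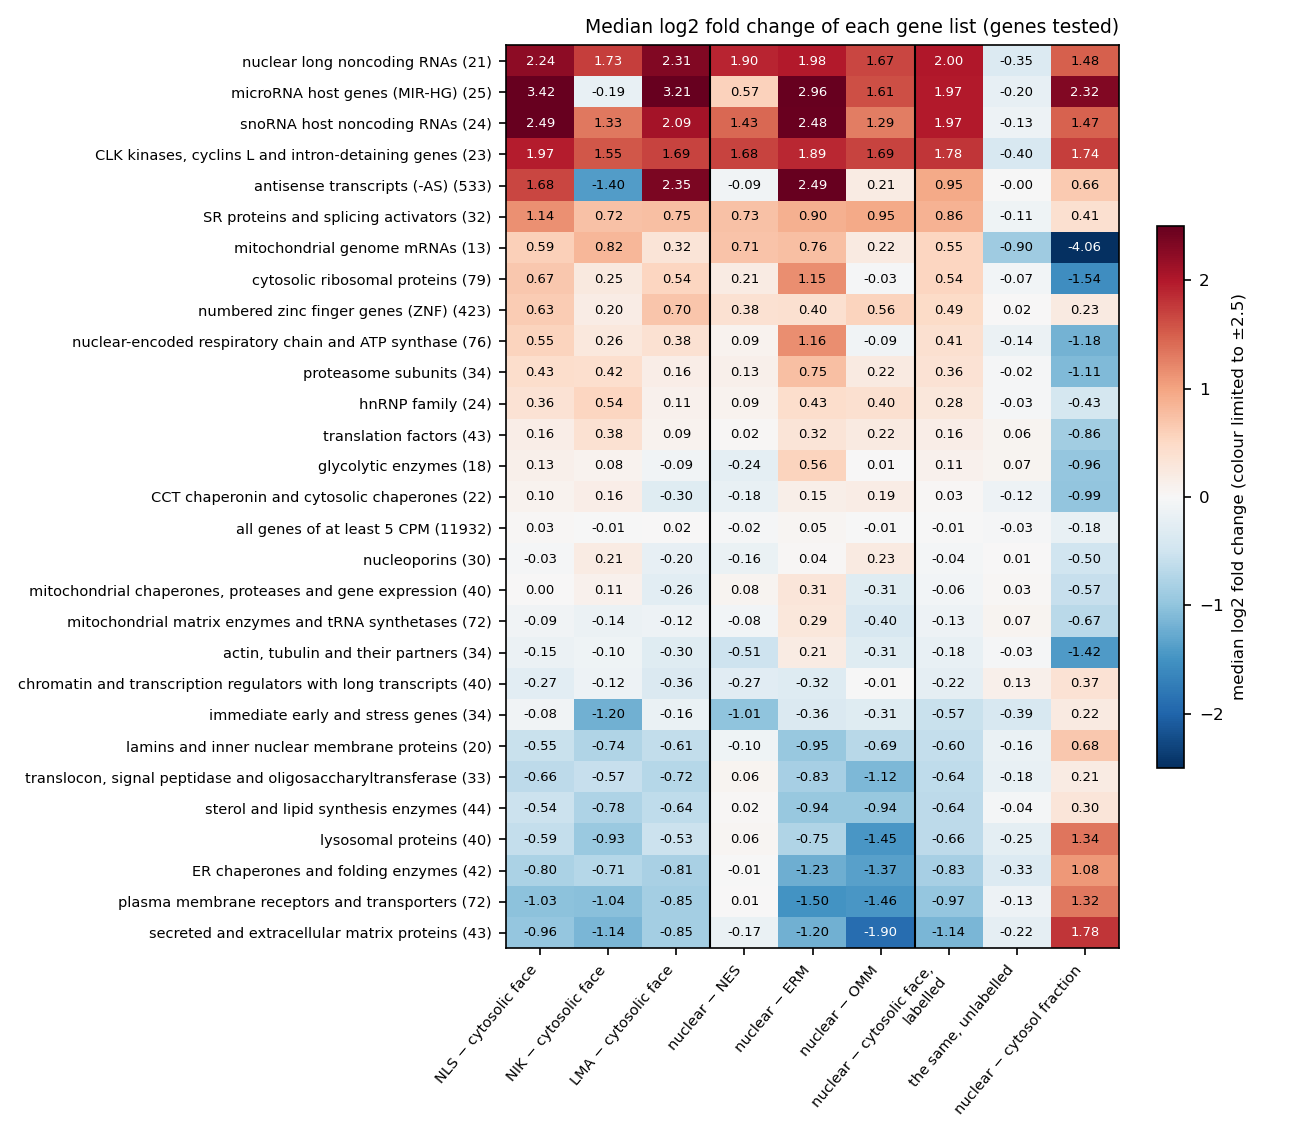
Median log2 fold change of each gene list (number of genes tested in brackets) for each nuclear construct against the cytosolic-face mean, for the nuclear mean against each cytosolic-face construct, for the whole labelled and unlabelled contrasts and for the fractions. The splicing lists are positive in every labelled column, whereas the secretory lists at the bottom lie between -0.17 and 0.06 against NES and at -0.75 or lower against ERM and OMM.

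The start of the coding sequence differed between genes lower with the nuclear constructs and the rest. Codons with thymine as the second base encode the hydrophobic residues phenylalanine, leucine, isoleucine, methionine and valine, and signal peptides of secreted proteins hold a run of such residues. The first 30 codons of 3 secretory genes and 3 others are shown for this reason, with every codon whose second base is thymine in capitals. They were read from GRCh38 with the GENCODE 29 coding sequence: SPARC on chr5:151674642-151676188, CANX on chr5:179705682-179705771, HSPA5 on chr9:125241037-125241126, GAPDH on chr12:6534833-6536554, ACTB on chr7:5529568-5529657 and DDX39B on chr6:31540443-31540532. SPARC, HSPA5, ACTB and DDX39B lie on the minus strand, and SPARC and GAPDH span 2 exons.
SPARC: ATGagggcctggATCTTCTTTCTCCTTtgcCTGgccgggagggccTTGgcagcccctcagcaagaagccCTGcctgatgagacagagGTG
CANX: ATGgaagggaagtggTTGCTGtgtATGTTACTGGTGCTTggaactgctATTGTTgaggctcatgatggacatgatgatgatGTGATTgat
HSPA5: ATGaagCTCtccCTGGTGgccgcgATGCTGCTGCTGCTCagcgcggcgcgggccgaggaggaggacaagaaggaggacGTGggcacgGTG
GAPDH: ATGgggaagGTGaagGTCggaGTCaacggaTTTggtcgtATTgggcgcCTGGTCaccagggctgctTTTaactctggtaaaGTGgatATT
ACTB: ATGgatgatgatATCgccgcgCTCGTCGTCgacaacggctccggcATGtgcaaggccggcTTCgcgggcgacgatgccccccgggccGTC
DDX39B: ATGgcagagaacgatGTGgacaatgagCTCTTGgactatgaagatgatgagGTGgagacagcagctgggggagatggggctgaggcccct
In any 10 consecutive codons after the first, SPARC had at most 6 such codons and CANX and HSPA5 7, against 4 in GAPDH and ACTB and 3 in DDX39B. GAPDH holds 11 in all, as many as HSPA5, but spread out.

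This measure was taken over the 10805 protein-coding genes of at least 5 CPM with an annotated coding start, and was chosen after values of these data had been seen. In genes with at most 2 such codons in any window, 15.6% were higher and 17.1% lower with the nuclear constructs. The shares stayed near this up to 5 codons, where 16.5% were higher and 16.2% lower. At 6 codons 11.8% were higher and 25.5% lower, at 7 codons 5.71% and 41.1%, and at 8 to 10 codons 4.07% and 48.2%. The median fold change of the last class was -0.77 over 369 genes. It was -0.77 for NLS, -0.80 for NIK and -0.65 for LMA against the cytosolic mean, and -0.02 against NES, -1.14 against ERM and -1.24 against OMM. Of the genes lower with the nuclear constructs 19.0% had 7 or more such codons in a window, against 2.77% of those higher, 6.4% of those not called and 8.27% of all.

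**Figure D4:**
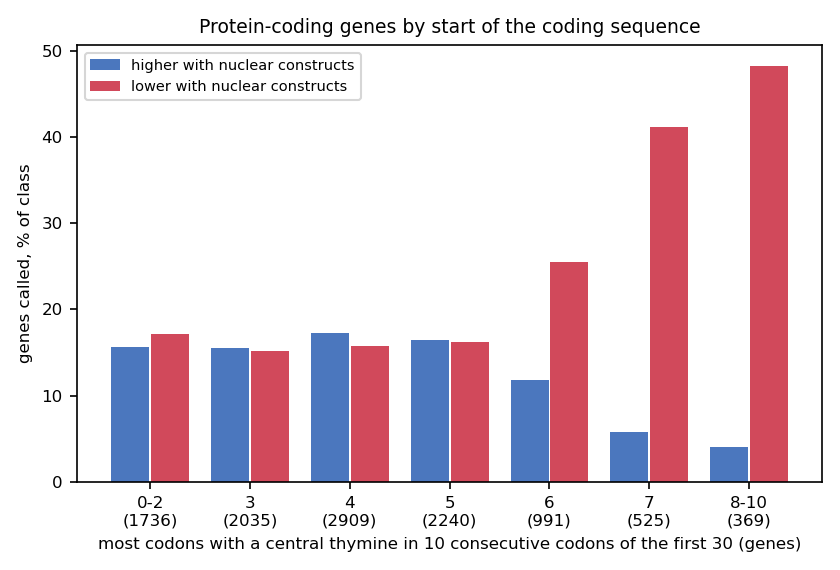
Share of protein-coding genes called higher or lower with the nuclear constructs, by the most codons with a central thymine in 10 consecutive codons of the first 30 (number of genes in brackets). Lower calls rise from 16.2% of genes at 5 codons to 48.2% at 8 to 10, and higher calls fall from 16.5% to 4.07%.

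Across protein-coding genes (10805 with a coding start, 10831 in all), which are not independent replicates, Spearman's rho with the labelled fold change was -0.13 for the codon window, -0.15 for the genomic span of the gene, -0.083 for GC content and -0.083 for coding length. After subtraction of the unlabelled contrast rho was -0.068 for the codon window and -0.079 for the span. GC content tracked the unlabelled contrast more (0.35) and the subtracted one in the opposite sense (-0.26), and its part in either was not tested. Coding length, at -0.083 here, had a rho of 0.42 with the fraction contrast. The motif ACCTCCC or GCCTCCC, searched on the sense strand of the longest transcript, occurs in a C-rich element linked to nuclear retention of some long RNAs. It was found in 60% of the 115 long noncoding RNAs that were higher and in 57.3% of all 396, and in 59.0% of the protein-coding genes that were higher and 62.6% of all. Its density had a rho of -0.0050 with the labelled fold change across the 396 long noncoding RNAs.

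Several messages for mitochondrial matrix proteins were far higher in OMM than in any other library. Of 72 matrix enzymes and tRNA synthetases, 12 were higher and 18 lower. Against OMM 26 were lower and 2 higher, whereas against ERM 9 were lower and 19 higher, and the test among NES, ERM and OMM called 31. ALDH18A1, a matrix enzyme of proline synthesis (chr10:95605929-95656706), was at 2987 and 2863 CPM in OMM, 358 and 349 CPM in ERM and 217 and 203 CPM in NES. The nuclear libraries were at 130, 162 and 189 CPM, below every cytosolic-face value (-1.90 ± 0.10). IARS2 and LARS2, mitochondrial tRNA synthetases, were at 3595 and 3621 CPM and at 1387 and 1570 CPM in OMM and at 601 CPM or less and 339 CPM or less in the other 10 libraries (-1.53 ± 0.10 and -1.77 ± 0.14). CPS1, the first enzyme of the urea cycle, was at 948 and 960 CPM in OMM, 171 and 225 CPM in ERM, 84.5 and 86.9 CPM in NES and 29.9 to 68.5 CPM in the nuclear libraries (-2.70 ± 0.18).

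Messages for small soluble and respiratory proteins leaned to the nuclear side, mostly against ERM. Of 79 cytosolic ribosomal proteins, 49 were higher and 1 lower (median 0.54). With the construct as the replicate 3 were higher and 0 lower. All 6 nuclear libraries lay above all 6 others in 7 of the 79, against 8.80% of genes of at least 5 CPM. The median was 0.21 against NES, 1.15 against ERM and -0.03 against OMM, and 68 of the 79 differed among NES, ERM and OMM. Without the ERM construct 13 were higher and 15 lower, with a median of 0.10. RPS7 was at 156 to 222 CPM in the nuclear libraries, 58.9 and 91.3 CPM in ERM and 93.2 to 147 CPM in NES and OMM (0.90 ± 0.12). RPS13 was at 240 to 357 CPM, 103 and 123 CPM in ERM and 200 to 246 CPM in NES and OMM, so its sides overlapped (0.75 ± 0.09). RPL17 differed by 1.16 ± 0.15. RPL36A had the largest value of the list, 3.55 ± 0.34, at 45.7 to 196 CPM against 8.42 to 13.1 CPM. Its gene overlaps a read-through transcript and its counts may be shared with it, so this value is uncertain.

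Nuclear-encoded respiratory chain and ATP synthase genes repeated this. Of 76, 31 were higher and 5 lower (median 0.41), and the medians against NES, ERM and OMM were 0.09, 1.16 and -0.09. Without the ERM construct 8 were higher and 12 lower, and with the construct as the replicate 2 were higher and 0 lower. Of 34 proteasome subunits 12 were higher and 4 lower, and with the construct as the replicate 1 of 33 was higher and 0 lower. PSMC6, an ATPase of the proteasome base, was at 71.4 to 101 CPM against 23.7 to 40.3 CPM (1.40 ± 0.17) and NES and OMM, at 32.4 to 40.3 CPM, lay below every nuclear library as ERM did. SSBP1, which binds mitochondrial DNA, was at 171 to 287 CPM against 50.7 to 133 CPM (1.35 ± 0.12), and HSPE1, a matrix co-chaperonin, at 131 to 233 CPM against 46.8 to 110 CPM (1.03 ± 0.13).

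The 13 messages of the mitochondrial genome, transcribed inside mitochondria, had 11 higher and 0 lower (median 0.55), while in the unlabelled lines 10 of them were lower (median -0.90). After subtraction of the unlabelled contrast 13 were higher and 0 lower (median 1.52). MT-CO1 was at 4229 to 7028 CPM with the nuclear constructs and at 1761 to 3910 CPM with the others (0.85 ± 0.14), and MT-ND1 at 843 to 1290 CPM against 336 to 606 CPM (1.05 ± 0.16). MT-ND6, which is encoded on the light strand, overlapped between sides (54.0 to 140 CPM against 34.0 to 159 CPM). It was called at 0.55 ± 0.19 and lost the call in 6 of 27 other settings. Without the ERM construct 3 of the 13 were called, and with the construct as the replicate 0 were.

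Soluble cytosolic proteins gave mixed lists. GAPDH, the glycolytic enzyme, was at 1026 to 1410 CPM against 620 to 1594 CPM and was not called (0.12 ± 0.10, adjusted p = 0.52); its sign changed without the ERM construct. Of 18 glycolytic enzymes 3 were higher and 3 lower, and TPI1 was at -0.43 ± 0.09, a call lost without the NES construct. ACTB, the cytoplasmic actin, was at 595 to 989 CPM against 754 to 1644 CPM (-0.58 ± 0.09), with NES highest at 1587 and 1644 CPM. Of 34 actin, tubulin and partner genes 3 were higher and 11 lower, and 15 were lower and 0 higher against NES. Translation factors had 18 of 43 higher and 8 lower, with EIF4G1, the scaffold of cap-dependent initiation, at -0.63 ± 0.08. Histone genes had 0 of 39 higher and 4 lower, near the 10.1% lower over all genes tested, and 3 of them reached 5 CPM. Cytosolic chaperones had 5 of 22 higher and 5 lower, and mitochondrial chaperones, proteases and gene expression factors 9 of 40 higher and 8 lower.

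Lists of chromatin, pore and envelope proteins held more lower than higher genes, unlike the splicing, hnRNP and zinc finger lists. Over all 11932 genes of at least 5 CPM, 1851 were higher and 2144 lower, so the background leaned the same way. With the construct as the replicate 0 chromatin genes were called, 1 pore gene was higher and 1 envelope gene was lower. Of 40 chromatin and transcription regulators with long transcripts, 2 were higher and 10 lower (median -0.22). CHD4, a nucleosome remodeller, was at 252 to 431 CPM against 469 to 775 CPM (-0.80 ± 0.09). Nucleoporins had 6 of 30 higher and 9 lower, with NUP54 at 84.5 to 130 CPM against 30.3 to 61.0 CPM (1.16 ± 0.15). Of 20 lamins and inner nuclear membrane proteins, 9 were lower and 1 higher. LBR, a sterol reductase and lamin receptor that spans the membrane, was at 280 to 366 CPM in the nuclear libraries, 292 and 325 CPM in NES and 739 to 1128 CPM in ERM and OMM (-0.99 ± 0.10), the same layout as CANX. NEMP1, another envelope membrane protein, differed by -0.98 ± 0.12. LMNB2, a lamin with no membrane span, was at 174 to 309 CPM against 363 to 569 CPM (-0.86 ± 0.11), with NES highest.

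The only member of that list called higher was LMNA, the gene of lamins A and C, and it followed 1 line. It was at 2327 and 2517 CPM in LMA, 11.7 to 36.1 CPM in NLS and NIK and 15.9 to 65.1 CPM on the cytosolic side (1.43 ± 0.20). The unlabelled LMA libraries had 3785 and 4359 CPM, and after subtraction the gene was not called (-0.48, adjusted p = 0.357). Without the LMA construct the value was -0.77 (adjusted p = 0.0161). Whether these reads come from the fusion construct was not tested.

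Some genes differed between the lines before any labelling. CDKN1A, the p53-induced inhibitor of cyclin-dependent kinases, was at 5.06, 11.3 and 16.8 CPM in the nuclear libraries and at 55.4, 142 and 185 CPM in the others (-3.51 ± 0.26). Its unlabelled difference was -2.46 (adjusted p = 9.44e-08), leaving -1.05 after subtraction. METTL7A, a lipid droplet and ER membrane protein, was at 9.81 to 30.6 CPM against 54.3 to 266 CPM (-3.12 ± 0.20), of which -1.30 was present without label. Immediate early and stress genes had 1 of 34 higher and 8 lower, against 9.39% higher and 10.1% lower over all genes tested. Only 23 of the 34 reached 5 CPM. Against the cytosolic mean 11 were lower for NIK, 2 for NLS and 2 for LMA, with 1, 1 and 3 higher. Without the NIK construct 3 were higher and 4 lower. BTG2, an antiproliferative p53 target, was at 9.84 to 28.7 CPM against 36.9 to 66.4 CPM (-1.54 ± 0.26), and the difference was -1.39 without label (adjusted p = 0.000906) and -0.15 after subtraction (adjusted p = 1.0). PPP1R15A, a phosphatase subunit of the stress response, differed by -1.89 ± 0.21 and SESN2, a sestrin, by -1.0 ± 0.15, neither of them called without label. DNAJB1, a heat shock gene from the list of cytosolic chaperones, differed by -1.14 ± 0.12 and was not called without label either.

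The constructs of a side varied among themselves, and more genes were called among the cytosolic-face constructs (1880, 8.29%). Replicates agreed less well for NIK (correlation 0.605) and ERM (0.787), and the part of this in both counts was not tested. The test among NLS, NIK and LMA called 722 genes (3.18%), and that among the same lines without label 101 (0.445%). The labelled count was 0 when only those libraries were fitted (edgeR, with 5336 below an unadjusted p of 0.05), 1747 by DESeq2 over all libraries and 2398 without NIK labelled 2. The differences among NLS, NIK and LMA given above for GAS5, SNHG1 and CANX rest on the spread shared over all groups. Against the cytosolic mean, 1698 genes were higher and 1159 lower for NLS, 1591 and 1854 for NIK and 1373 and 1275 for LMA. The nuclear mean gave 600 higher and 1066 lower against NES, 1964 and 1952 against ERM and 809 and 1790 against OMM. The list of CLK kinases, cyclins L and intron-detaining genes kept a median between 1.55 and 1.97 in all 6 of these comparisons, and the nuclear long noncoding RNAs one between 1.67 and 2.31. NucPore, a construct at the nuclear pore that was not part of either side, gave medians against the cytosolic mean of 0.94 for the former list, -0.24 for the latter and 1.24 for ribosomal proteins.

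Fractionation of the same cell line gave a different picture for membrane messages. Of 19115 genes tested there, 6535 (34.2%) were higher and 5323 (27.8%) lower in the nuclear than in the cytosol fraction. Of the 1851 genes of at least 5 CPM that were higher with the nuclear constructs, 45.7% were higher in the nuclear fraction and 29.6% in the cytosol fraction. Of the 2144 lower with the nuclear constructs, 31.0% were higher in the nuclear and 35.9% in the cytosol fraction. Across the 11932 genes Spearman's rho between both fold changes was 0.15. Lists of nuclear noncoding RNAs, snoRNA hosts and splicing regulators were positive in both, with fraction medians of 1.48 for nuclear long noncoding RNAs, 1.47 for snoRNA hosts and 1.74 for CLK and intron-detaining genes. The hnRNP family, at 0.28 between the constructs, had a fraction median of -0.43 with 2 higher and 12 lower. Of the 42 ER chaperones 33 were higher and 0 lower in the nuclear fraction (median 1.08), of the plasma membrane genes 60 and 0 (median 1.32) and of the secreted proteins 36 and 0 (median 1.78). HSPA5 was at 2.05 and CANX at 1.77 there. Ribosomal proteins had 72 of 79 lower in the nuclear fraction (median -1.54), and the mitochondrial genome messages 12 of 13 lower and 1 higher, with a median of -4.06.

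**Figure D5:**
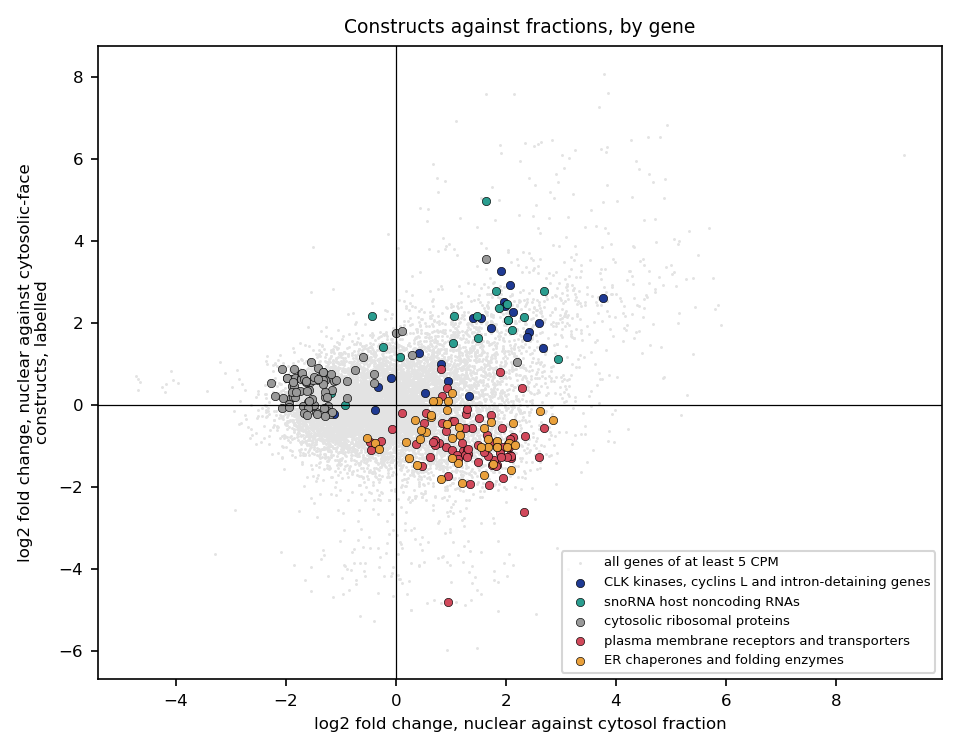
Log2 fold change of each gene of at least 5 CPM in the labelled contrast (vertical) against that in the nuclear minus cytosol fractions (horizontal), with the members of 5 lists coloured. Splicing genes and snoRNA hosts lie mostly at the upper right, ER chaperones and plasma membrane genes mostly at the lower right, and ribosomal proteins to the left at small positive vertical values.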

How the data were processed

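Poly(A) libraries of 9 constructs, labelled and unlabelled, and of 2 cell fractions were used. The deposited tables hold raw counts per gene, whole numbers with no normalization by the authors. Trimmomatic, STAR, HTSeq, SAMtools and bedtools on GRCh38 are named, without versions or roles, in the submitters' processing notes; per the labels' protocols, libraries were stranded and RNA under 100 nt was poorly recovered. Whether counting used strand is not given in the sources used here.

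Genes passing edgeR's (4.0.16) filterByExpr were scaled by TMM and fitted over all 36 construct libraries with 1 mean per group (quasi-likelihood test, Benjamini-Hochberg over all 22680 genes, adjusted p under 0.05), and the 4 fraction libraries separately. CPM values are TMM-normalised. Of the genes tested 22456 had a GENCODE 29 name. Named genes were the 15 with the largest change each way that were at or above 5 CPM, changed after subtraction of the unlabelled contrast and had sides that did not overlap, up to 4 members of each of 29 lists with the smallest p, and 12 landmark genes, of which those of most use are described. Members and lists were chosen with earlier results of these data known. Alternatives were DESeq2 (1.42.0), other size factors, other filters, other libraries in the fit, the construct as the replicate, and single libraries or constructs left out. Each group has 2 libraries, and standard errors cover the spread between them.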

Additional observations from a re-analysis of the deposited data

Results flagged for a closer look

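Genes described above that were called in one direction between the constructs and in the other between the fractions, with no overlap between the libraries of both sides in either comparison, are listed with their nuclear minus cytosol log2 fold change. The difference between both contrasts was not tested. Lower with the nuclear constructs and higher in the nuclear fraction were ADAMTS15 (2.54), HYOU1 (2.09), CALR (1.61), SPARC (1.48), CHD4 (1.41), FADS2 (1.32), ALDH18A1 (1.27), CALU (1.20), FSTL1 (1.14), SEC61A1 (1.12), F11R (0.98), CPS1 (0.96), GPRC5A (0.93), METTL7A (0.89), SSR2 (0.85) and SCARB2 (0.63). Most of these encode secreted, membrane or ER proteins; ALDH18A1 and CPS1 are matrix enzymes and CHD4 is a chromatin remodeller. Higher with the nuclear constructs and lower in the nuclear fraction were MT-ND1 (-3.19), MT-CO1 (-2.89), HSPE1 (-1.87), SSBP1 (-1.51), RPS7 (-1.42), NUP54 (-0.65), RPL17 (-0.59) and PSMC6 (-0.50).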

How the results depend on the processing

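Counts of calls are given as labelled higher and lower, subtracted higher and lower, unlabelled, and among the nuclear constructs, against 2130, 2287, 1365, 1510, 849 and 722. With the construct as the replicate the first 5 were 617, 360, 406, 200 and 112. A fold change of at least 1 on the log2 scale left 1253, 1081, 816 subtracted lower and 216 unlabelled. DESeq2 called 2234 subtracted higher, 1746 unlabelled and 1747 among the nuclear constructs. Fitting only the libraries of each contrast gave 1897 labelled higher and 3049 lower, 914 subtracted higher and 1796 lower, 462 unlabelled and 0 among the nuclear constructs (edgeR; 5336 at an unadjusted p under 0.05), with a median over all genes of -0.017 in place of 0.14. No filter on low counts gave 1098 among the nuclear constructs. Without the 6 libraries in which over 2% of well-expressed genes had no count (1 library kept where both of a group passed this limit), the counts were 3775 labelled lower, 2203 and 2938 subtracted, 2173 unlabelled, 3025 among the nuclear constructs and 3453 among the cytosolic-face constructs (1880 before).

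Without ERM, labelled higher was 1124 and subtracted higher 854. The unlabelled count was 408 without LMA, 497 without NES, 553 without NLS and 486 without OMM. With 1 library left out, the lone library of its group assumed to vary like the others, subtracted lower ranged from 1327 to 2552, unlabelled from 683 to 2225 and the count among the nuclear constructs from 759 to 2398. NIK labelled 2 set the highest of the first and last (2552 and 2398), and NES unlabelled 2 (2421 and 2225) and OMM unlabelled 1 (2426 and 1816) raised the subtracted lower and unlabelled counts. Leaving out ERM labelled 1 or 2 gave 1371 and 1354 among the nuclear constructs.

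With the replicate number as a block the counts were 2110, 2254, 1342, 1503, 844 and 730. Same-numbered libraries of different constructs did not deviate together (correlations of -0.057 to 0.043 over 15 pairs of groups, none over 0.1), so the numbers do not pair the samples. Of 83 genes described, 44 kept direction and call in all 27 settings, and 38 lost the call with the construct as the replicate. GAPDH, not called, changed sign with only the libraries of the contrast (-0.0056) and without ERM (-0.18), and was called at 0.33 without NES. LMNA changed sign without LMA (-0.77). Each value rests on 2 libraries a construct, and several scarce genes had 0 counts in NIK or ERM.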
